A study of Mus musculus with 2 samples.

Results

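The 8 genes Pdcd1, Lag3, Havcr2, Tigit, Ctla4, Cd160, Btla and Cd200r1, each of which encodes a cell surface receptor that can restrain immune cells, were followed through the cells of B16F10 melanomas grown under the skin of mice. They were chosen by name, with earlier results of these data known, and all 8 were among the 27635 genes of the table. The cells were taken on day 14 by a Percoll step and positive selection for CD3. Wild-type and Nr4a knockout cells carried hashtag antibodies and were pooled, and about 20000 cells were loaded into 1 BD Rhapsody capture, a microwell system in which a barcoded bead collects the RNA of each cell, and the cDNA was amplified by TAS-Seq. Its mRNA and its hashtags were sequenced as separate libraries, which are the 2 samples of the series. The title of the series names Nr4a1 and Nr4a2 as the deleted genes; the cells in which they are deleted, the strain and age of the mice, and which hashtag marks which genotype are not given in the sources used here. Genotypes were therefore not compared, each hashtag stands for a sample of unknown group, and no p-value was computed, because both genotypes share 1 mRNA library and cells are not replicates.

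PD-1 (Pdcd1) and CTLA-4 (Ctla4) belong to the CD28 family of receptors; PD-1 recruits the phosphatase SHP-2 when it binds PD-L1 or PD-L2, and CTLA-4 takes CD80 and CD86 away from the activating receptor CD28. LAG-3 (Lag3) binds MHC class II and fibrinogen-like protein 1, TIM-3 (Havcr2) binds galectin-9 and phosphatidylserine among other ligands, and TIGIT (Tigit) competes with the activating receptor CD226 for CD155. BTLA (Btla) and CD160 (Cd160) both bind the herpesvirus entry mediator, and the receptor for CD200 (Cd200r1) is best known from macrophages and other myeloid cells. T cells that meet antigen for a long time, as in tumours, are known to carry several of these receptors at once, with a Tcf7-expressing pool that renews the response and a terminal pool marked by TIM-3 and CD39 (Entpd1).

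In GENCODE M21 on the GRCm38 build, Pdcd1 lies at chr1:94038305-94052553 on the minus strand and Ctla4 at chr1:60887000-60915832 on the plus strand. Lag3 lies at chr6:124904361-124911705 on the minus strand, Havcr2 at chr11:46454935-46481255 on the plus strand and Cd160 at chr3:96798763-96829351 on the minus strand. Tigit at chr16:43648867-43664146 on the minus strand, Cd200r1 at chr16:44765736-44794978 and Btla at chr16:45224315-45257670, both on the plus strand, share a chromosome. All 8 are annotated as protein coding. Promoters from RefSeq on GRCm38.p6 matched 6 of the 8 genes. The 250 bases before the start are shown, 5′ to 3′ on the strand of the gene, for Pdcd1, Havcr2 and Ctla4, which were higher in Entpd1-positive than in Tcf7-positive CD8 cells, and for Btla, which was lower. The start is that of RefSeq, so the window of Ctla4 lies inside the longer GENCODE span given above and that of Btla overlaps the first bases of its span. Capitals mark matches, on either strand, to AAAGGTCA (NBRE, the element that Nr4a monomers bind), TGANTCA (AP-1) or GGAAA (the core of NFAT sites).

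Pdcd1, chr1:94052554-94052803, minus strand: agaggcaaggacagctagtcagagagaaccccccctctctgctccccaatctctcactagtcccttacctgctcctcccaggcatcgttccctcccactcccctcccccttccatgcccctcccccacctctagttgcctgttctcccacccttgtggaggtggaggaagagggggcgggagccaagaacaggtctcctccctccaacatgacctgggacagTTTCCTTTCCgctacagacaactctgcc
Havcr2, chr11:46454681-46454930, plus strand: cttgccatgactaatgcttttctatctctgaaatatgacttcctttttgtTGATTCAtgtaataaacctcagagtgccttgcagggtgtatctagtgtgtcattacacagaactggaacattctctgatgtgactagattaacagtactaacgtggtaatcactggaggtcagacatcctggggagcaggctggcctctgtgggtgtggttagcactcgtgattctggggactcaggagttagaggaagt
Ctla4, chr1:60908775-60909024, plus strand: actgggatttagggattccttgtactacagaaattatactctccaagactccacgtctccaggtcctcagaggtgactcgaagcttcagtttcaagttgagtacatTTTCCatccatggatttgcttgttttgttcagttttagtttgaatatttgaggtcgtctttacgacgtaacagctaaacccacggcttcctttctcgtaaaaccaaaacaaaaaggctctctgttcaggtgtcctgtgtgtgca
Btla, chr16:45224087-45224336, plus strand: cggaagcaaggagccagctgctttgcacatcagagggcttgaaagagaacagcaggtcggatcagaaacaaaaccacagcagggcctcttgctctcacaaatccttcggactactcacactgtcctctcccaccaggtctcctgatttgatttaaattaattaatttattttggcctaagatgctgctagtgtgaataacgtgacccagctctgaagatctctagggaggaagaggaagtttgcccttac

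The window of Pdcd1 held 2 matches to GGAAA side by side, that of Ctla4 held 1, and that of Havcr2 held 1 match to TGANTCA. The window of Btla held none of the 3 motifs, and AAAGGTCA was in none of the windows of the 6 genes. Of all 32851 windows of the same length, 55.6% held GGAAA, 6.75% TGANTCA and 1.34% AAAGGTCA, so the matches are a description of these letters and no more.

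Of 12016 barcodes, 11318 had 500 genes or more and at most 25% of counts from mitochondrial genes and were kept. Clusters computed without the 8 genes gave 7901 T cells, 1497 macrophages, 1298 melanoma cells, 276 dendritic cells, 139 neutrophils and 26 fibroblasts. A cluster of 131 cells led by Cd163l1, Trdc and Blk and a cluster of 50 cells led by Ace, Ear2 and Treml4 were left unnamed. The T cell markers (Cd3d, Cd3e, Cd3g, Trac, Trbc1, Trbc2 and Cd2) summed to between 4597 and 7214 counts per 1000000 counts (CPM) in the T cell states and to 94.7 CPM in melanoma cells. T cells were divided by other genes, at 5 or more counts: CD8 or CD4, cycling (Mki67 or Top2a), Ly49 (Klra1, Klra6 or Klra7), Entpd1, Tcf7 and Foxp3, and CD4 cells with Tnfsf11, Penk or Ccl1. CD8 cells were taken in order as cycling, then Ly49, then Entpd1 without Tcf7 or Tcf7 without Entpd1. Those left, with both Entpd1 and Tcf7 or neither, are called the remaining CD8 cells. Macrophages were split by Arg1 and Cxcl9 with the same rule, and those left held both or neither. Median counts per cell ran from 9287 in neutrophils, of which 119 of 139 were shallower than the depth used, to 159806 in melanoma cells. Among T cell states the lowest median was 13285, in those without Cd4, Cd8 or Ly49 genes. Levels and shares were therefore read with every cell thinned to 15000 counts, and the 3062 shallower cells were left out. The gates were set on counts before thinning, so the state given to a cell can depend on its depth. A gene was scored as found in a cell at 5 or more of the thinned counts. Of the 12016 mRNA barcodes, 11808 were also in the hashtag table, and 6301 of the cells kept could be given a hashtag, from 379 for A0302 to 2104 for A0301 among the 6 of the labels. The 6301 include 21 to 28 cells for each of A0307 to A0312, which are outside those 6 and were not used for spread. A hashtag's level is given where it had 30 or more cells in a state. Intervals are exact binomial 95% intervals, and the share that 0 cells allows is given as 3 cells of the number examined; both cover counting error only.

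**Figure D1:**
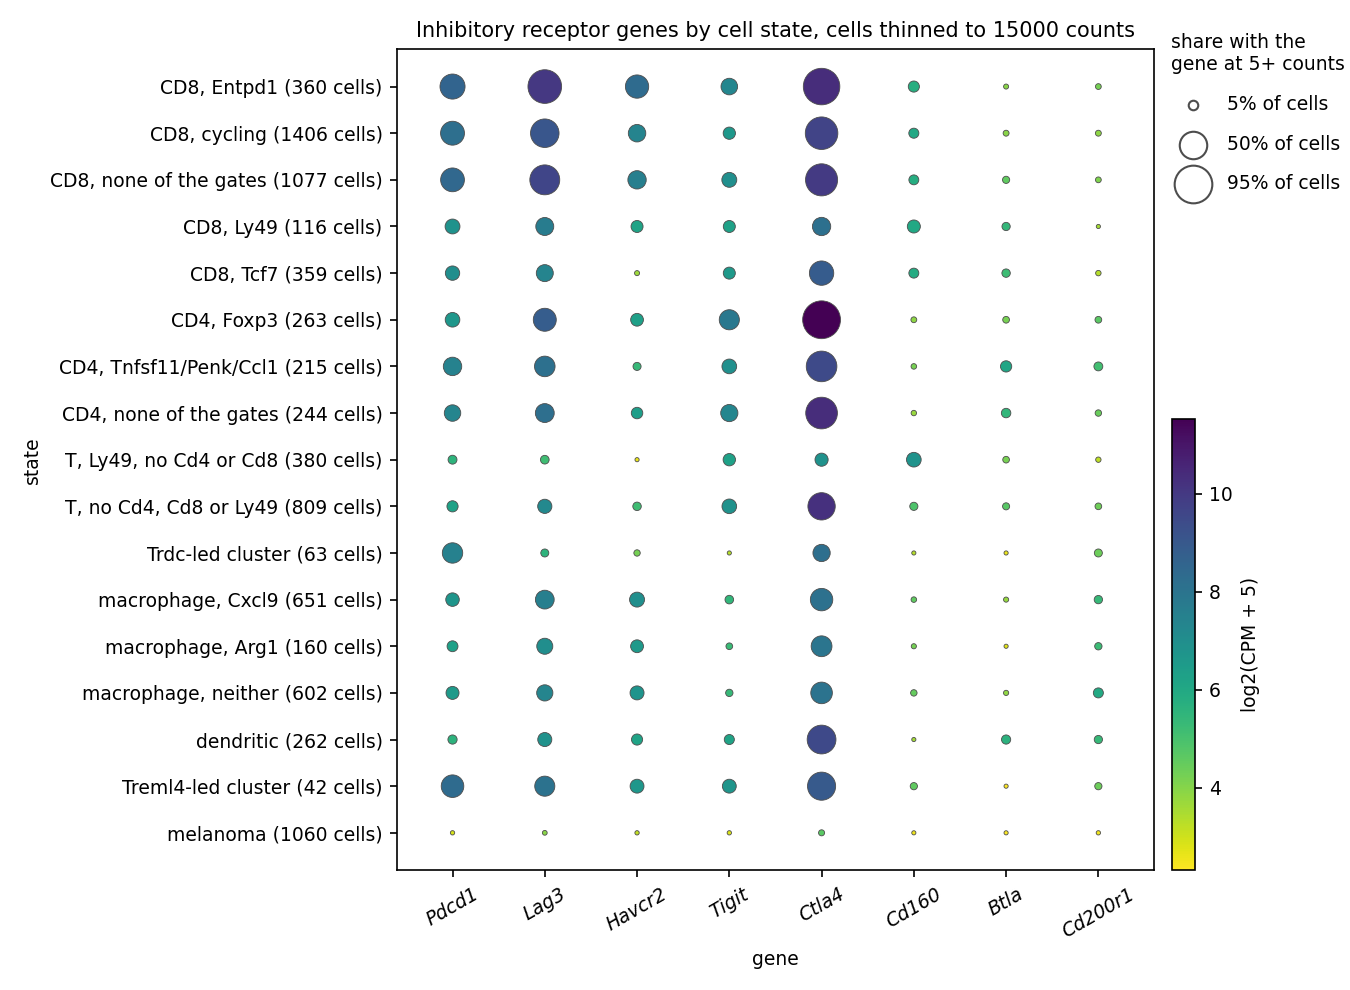
Level and share of the 8 genes (horizontal axis) in 17 states (vertical axis, with the number of thinned cells); colour is log2(CPM + 5) and area the share of cells with 5 or more counts. Ctla4 is darkest in Foxp3-positive CD4 cells (2958 CPM), Havcr2 is near the melanoma level in Tcf7-positive CD8 cells (7.80 CPM), and melanoma cells are pale for all 8 genes, at 20.7 CPM or less. CD8 cells labelled none of the gates are the remaining CD8 cells, with both Entpd1 and Tcf7 or neither. Macrophages labelled neither held both Arg1 and Cxcl9 or neither.

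Among non-cycling CD8 cells, those with Entpd1 had higher levels of Havcr2, Lag3, Pdcd1 and Ctla4 than those with Tcf7, and a lower level of Btla. Tigit and Cd160 stayed within 2-fold, and Cd200r1 was below 20 CPM in both states and was not compared. Thus 4 of the 7 genes compared were at least 2-fold higher and 1 was at least 2-fold lower, while 6.52% and 5.09% of the 6657 genes compared passed in those directions (11.6% in all). The median log2 ratio was 1.48 over the 7 genes and 0.03 over all genes. Macrophage markers summed to 263 CPM in Entpd1-positive and 202 CPM in Tcf7-positive CD8 cells and melanoma markers to 222 and 276 CPM in the same order of states; the part of such reads in these ratios was not tested.

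Pdcd1 was at 383 CPM in the 360 Entpd1-positive cells and 125 CPM in the 359 Tcf7-positive cells, a log2 ratio of 1.58. Hashtags A0301 and A0306, which alone had 30 cells in both states, gave 487 and 396 CPM in Entpd1-positive cells and 148 and 120 CPM in Tcf7-positive cells, a log2 ratio of 1.68 in each. The levels of the hashtags did not overlap between the states, but the hashtags are few and how many of all genes separate in this way was not counted. Lag3 was at 1036 CPM in Entpd1-positive and 160 CPM in Tcf7-positive cells (log2 ratio 2.66), and was found in 75.6% (70.8 to 79.9) and 18.4% (14.5 to 22.8) of them. A0301 and A0306 had 1073 and 1319 CPM of Lag3 in Entpd1-positive cells, against 164 and 174 CPM in Tcf7-positive cells.

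Havcr2 had the widest gap of the 8 genes between these states. It was at 322 CPM in Entpd1-positive and 7.80 CPM in Tcf7-positive cells (log2 ratio 4.68), and was found in 128 of 360 and 2 of 359 cells. A0301 and A0306 had 273 and 259 CPM in Entpd1-positive cells, against 0 and 15.1 CPM in Tcf7-positive cells. For comparison, melanoma cells, which should lack the receptor, had 3.90 CPM and Havcr2 in 1 of 1060 cells, so its share in Tcf7-positive cells, 0.557% (0.0675 to 2.00), is not detectably above that background at this depth. Ctla4 was at 1320 CPM in Entpd1-positive and 469 CPM in Tcf7-positive cells (log2 ratio 1.48), with 1156 and 1430 CPM, against 331 and 313.98 CPM, in A0301 and A0306. With Gzmc, Gzmd, Gzme or Gzmf in place of Entpd1 as the gate, the log2 ratio of Ctla4 was 0.95, under 2-fold.

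Tigit was at 154 CPM in Entpd1-positive and 90.1 CPM in Tcf7-positive cells (log2 ratio 0.74). Its ratio reached 1.02 at a depth of 8000 counts and 1.25 in barcodes without macrophage or melanoma marker reads, so whether it passes 2-fold depends on these choices. Cd160 was at 48.5 CPM in Entpd1-positive and 54.97 CPM in Tcf7-positive cells, and the hashtags pointed opposite ways, with log2 ratios of -1.09 in A0301 and 1.28 in A0306. Btla was at 10.6 CPM in Entpd1-positive and 32.3 CPM in Tcf7-positive cells (log2 ratio -1.26), found in 2 and 13 cells. The hashtags did not share its direction: A0301 had 0 CPM in Entpd1-positive and 29.4 CPM in Tcf7-positive cells, and A0306 had 13.0 and 6.45 CPM. The ratio of Btla was -0.44 in barcodes without reads of another class and -0.78 with a pseudocount of 20 CPM in place of 5, and its lower level rests on few cells.

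**Figure D2:**
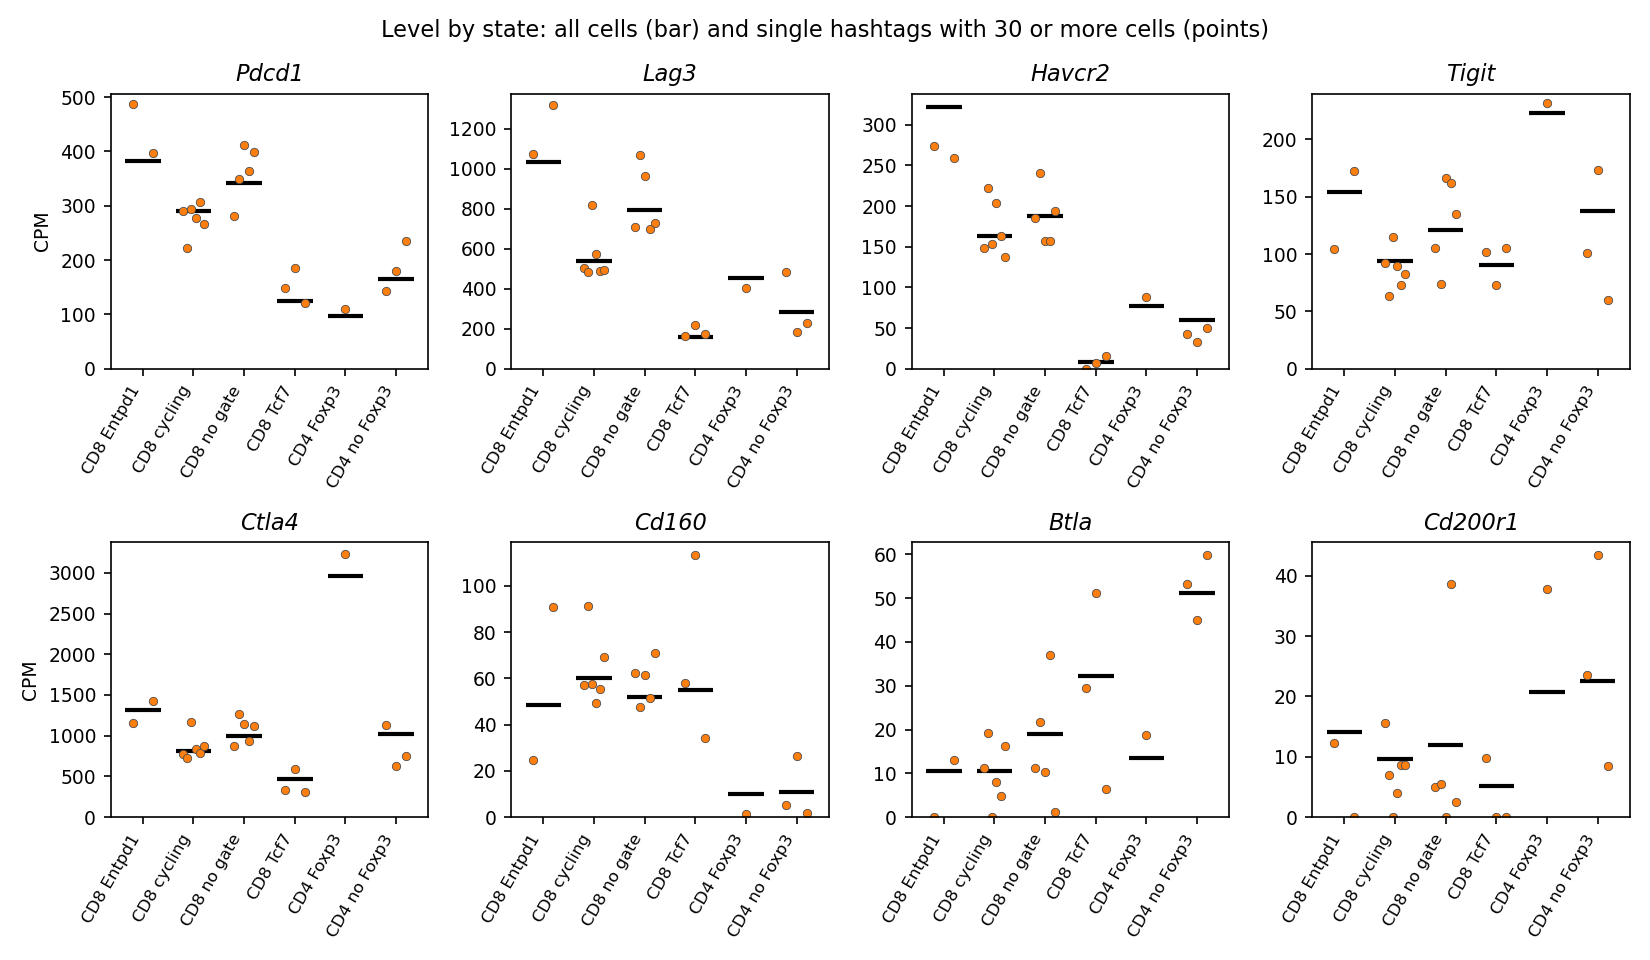
CPM of each gene (vertical axes, from 0) in 6 T cell states; black bars are all thinned cells and points are single hashtags with 30 or more cells. The points of Pdcd1, Lag3, Havcr2 and Ctla4 in Entpd1-positive cells lie above those in Tcf7-positive cells, while those of Cd160 and Btla overlap. These are 2 hashtags against 3, and how many of all genes separate in this way was not counted. CD8 cells labelled no gate held both Entpd1 and Tcf7 or neither.

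The remaining CD8 cells (1077 cells), with both Entpd1 and Tcf7 or neither, lay between these states. They had 342 CPM of Pdcd1, 794 CPM of Lag3, 187 CPM of Havcr2 and 998 CPM of Ctla4. Cycling CD8 cells had lower levels of all 4 of these genes and of Tigit than Entpd1-positive cells, each by less than 2-fold: 0 of the 6 genes compared passed, beside 6.10% of all genes (5.11% higher and 0.992% lower). The log2 ratios were -0.40 for Pdcd1, -0.70 for Ctla4, -0.68 for Tigit, -0.94 for Lag3 and -0.96 for Havcr2, and all were below 0 in both hashtags, A0301 and A0306. In these hashtags Lag3 was past 2-fold, at -1.08 and -1.40, and so was Tigit in A0306, at -1.01. In all cells Lag3 and Havcr2 passed 2-fold at a depth of 8000 counts, at -1.08 and -1.07. Cycling cells had a median of 55253 counts before thinning, and Lag3 was found in 75.7% of them unthinned and in 53.9% at equal depth. At equal depth a cycling cell held a median of 2619 genes and an Entpd1-positive cell 2128; the part of this in the ratios was not tested.

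CD8 cells with Ly49 receptors (116 cells) were within 2-fold of Tcf7-positive cells in Pdcd1 (113 and 125 CPM), Lag3 (202 and 160 CPM) and Cd160 (59.2 and 54.97 CPM). Havcr2 alone passed 2-fold, at 67.2 CPM in Ly49-positive and 7.80 CPM in Tcf7-positive cells (log2 ratio 2.50), which is 1 of 7 genes beside 7.65% of all genes (3.70% higher and 3.95% lower). No hashtag had 30 Ly49-positive CD8 cells, so this ratio has no spread, and Havcr2 was found in 10 of the 116 cells. Ly49-positive cells could hold Entpd1, while Tcf7-positive cells could not. Of the 116, 16 lay in the cluster that held 85.8% of Entpd1-positive cells, and the part of this in the ratio was not tested. Their NK cell markers summed to 157 CPM, against 27.5 CPM in Tcf7-positive cells.

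CD4 cells with Foxp3, the factor that defines regulatory T cells, had higher Ctla4 and lower Btla than CD4 cells without it. Of the 244 Foxp3-negative CD4 cells without Tnfsf11, Penk or Ccl1, 38 (15.6%) lay in the cluster led by Foxp3. That cluster held 258 of the Foxp3-positive CD4 cells (98.1%), and the part of such cells in the ratios was not tested. Ctla4 was at 2958 CPM in the 263 Foxp3-positive cells and 1020 CPM in the 459 Foxp3-negative cells (log2 ratio 1.53), and was found in 95.8% (92.6 to 97.9) and 64.7% (60.1 to 69.1). A0301, the sole hashtag with enough cells in both, had 3233 and 1132 CPM. Btla was at 13.4 CPM in Foxp3-positive and 51.1 CPM in Foxp3-negative cells (log2 ratio -1.61), found in 5 and 28 cells, with 18.9 and 53.2 CPM in A0301. These were 2 of the 7 genes compared, beside 6.61% of all genes (3.01% higher and 3.60% lower). Both directions held in the hashtag that could be read, and the size of the Ctla4 ratio was close to the pooled one.

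The other genes stayed within 2-fold between Foxp3-positive and Foxp3-negative CD4 cells. Tigit was at 223 and 138 CPM in these states (log2 ratio 0.68), reaching 1.00 at a depth of 25000 counts. Lag3 was at 454 and 285 CPM (log2 ratio 0.66), although A0301 gave -0.26, and it reached 1.00 when cycling cells were removed. Pdcd1 went the other way, at 97.1 CPM in Foxp3-positive and 165 CPM in Foxp3-negative cells (log2 ratio -0.73), and -1.07 in barcodes without reads of another class. Macrophage markers summed to 792 CPM in Foxp3-positive and 259 CPM in Foxp3-negative cells and plasma cell markers to 34.2 and 906 CPM. Among CD4 cells without Foxp3, Tnfsf11, Penk and Ccl1, 1 cell held 99.9% of the plasma cell counts. The part of these reads in the ratios was not tested.

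Among Foxp3-negative CD4 cells, the 215 with Tnfsf11, Penk or Ccl1 had 36.6 CPM of Havcr2, against 80.3 CPM in the 244 others, a log2 ratio of -1.04 and the 1 gene of 7 past 2-fold, beside 8.84% of all genes (4.21% higher and 4.63% lower). This ratio was under 2-fold without A0301 (-0.96), without A0303 (-0.96) and without A0306 (-0.94). Of the 244 others, 38 lay in the cluster led by Foxp3, and Foxp3-positive CD4 cells had 76.6 CPM of Havcr2. The part of these cells in the ratio was not tested. Btla was at 64.8 CPM in the cells with these genes, its highest level in any T cell state, and at 39.1 CPM in the others. Cd200r1 was at 29.5 and 16.4 CPM in the same states, but A0301, the sole hashtag with 30 cells in both, pointed the other way, with 0 CPM in the cells with these genes and 42.4 CPM in the others.

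Set against Foxp3-negative CD4 cells, CD8 cells had more Lag3, Havcr2 and Cd160 and less Btla, which is 4 of the 8 genes beside 4.34% of all genes (1.53% higher and 2.81% lower). Cd160 was at 55.6 CPM in the 3318 CD8 cells and 10.9 CPM in Foxp3-negative CD4 cells (log2 ratio 1.93), with ratios of 2.55, 1.08 and 3.46 in A0301, A0305 and A0306. Havcr2 was at 168 and 59.8 CPM (log2 ratio 1.42), with ratios of 1.67, 2.11 and 1.56 in the same hashtags. Lag3 was at 622 and 285 CPM (log2 ratio 1.11), but its ratio in A0301 was 0.20, against 1.52 in A0305 and 1.42 in A0306. The ratio of Lag3 was 0.99 when T cells were taken by marker counts, a rule that can also take macrophages with T cell reads. Btla was at 16.6 CPM in CD8 and 51.1 CPM in Foxp3-negative CD4 cells (log2 ratio -1.38), lower in CD8 cells in all 3 hashtags, at -1.55, -0.51 and -2.06, and at -0.96 with a pseudocount of 20 CPM. Pdcd1 came close to 2-fold, with a log2 ratio of 0.81, and Ctla4 and Tigit were at -0.23 and -0.34.

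T cells with Ly49 receptors and neither Cd4 nor Cd8 (380 cells) stood apart in Cd160. It was at 108 CPM there, its highest level in any state, and was found in 13.4% (10.2 to 17.3), with 100 CPM in A0301 and 93.3 CPM in A0306. The same cells had low levels of Lag3 (31.2 CPM) and Pdcd1 (43.2 CPM), and Havcr2 was found in 0 of 380 cells, which allows a share of up to 0.789%. NK cell markers summed to 406 CPM in them, against 22.8 CPM in CD8 cells. In the cluster led by Cd163l1, Trdc and Blk, in which the gamma delta T cell gene Trdc is a leading gene, Pdcd1 was at 180 CPM and was found in 17 of 63 cells, 27.0% (16.6 to 39.7). Lag3 was found in 2 of these 63 cells, Havcr2 in 1 and Tigit and Cd160 in 0, and 0 of 63 allows a share of up to 4.76%. Pdcd1 was thus found in those cells mostly without the other genes, although Ctla4 was found in 12 of the 63.

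The number of the 8 genes found in a cell followed the same states. At equal depth 3 or more were found in 57.5% of Entpd1-positive CD8 cells (52.2 to 62.7) and in 9.47% of Tcf7-positive CD8 cells (6.65 to 13.0). The hashtags gave 58.3% and 61.2% in Entpd1-positive cells and from 3.23% to 14.7% in Tcf7-positive cells. The share was 37.2% in the remaining CD8 cells, 32.9% in cycling CD8 cells and 8.62% in Ly49-positive CD8 cells. It was 22.1% in Foxp3-positive CD4 cells and 17.2% in Foxp3-negative CD4 cells. In melanoma cells it was 0 of 1060, which allows up to 0.283%. Without thinning it was 74.9% in Entpd1-positive and 73.0% in cycling CD8 cells, a gap that appears at equal depth only. The share itself depends on depth, since it was 25.9% of Entpd1-positive cells at 8000 counts and 78.7% at 25000.

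Among the 3318 CD8 cells the ratio of co-detection was highest for Havcr2 in cells with Lag3. Of cells with Lag3, 27.1% (25.04 to 29.2) held Havcr2, against 10.98% (9.47 to 12.6) of cells without it, a ratio of 2.47. Of cells with Lag3, 43.4% held Pdcd1, against 24.0% of cells without it (ratio 1.81), and 14.7% held Tigit, against 7.89% (ratio 1.86). Of cells with Ctla4, 61.0% held Lag3, against 36.9% of cells without it (ratio 1.65). The median ratio over the 28 pairs, each pair read in 1 direction, was 1.22. Cd160 split the cells with ratios between 0.85 and 1.41: 33.0% of cells with Cd160 held Pdcd1, against 34.4% of cells without it. Havcr2 was found in 6 of 61 cells with Btla (9.84%, 3.70 to 20.2) and in 19.7% of cells without it, a share that lies inside that interval.

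**Figure D3:**
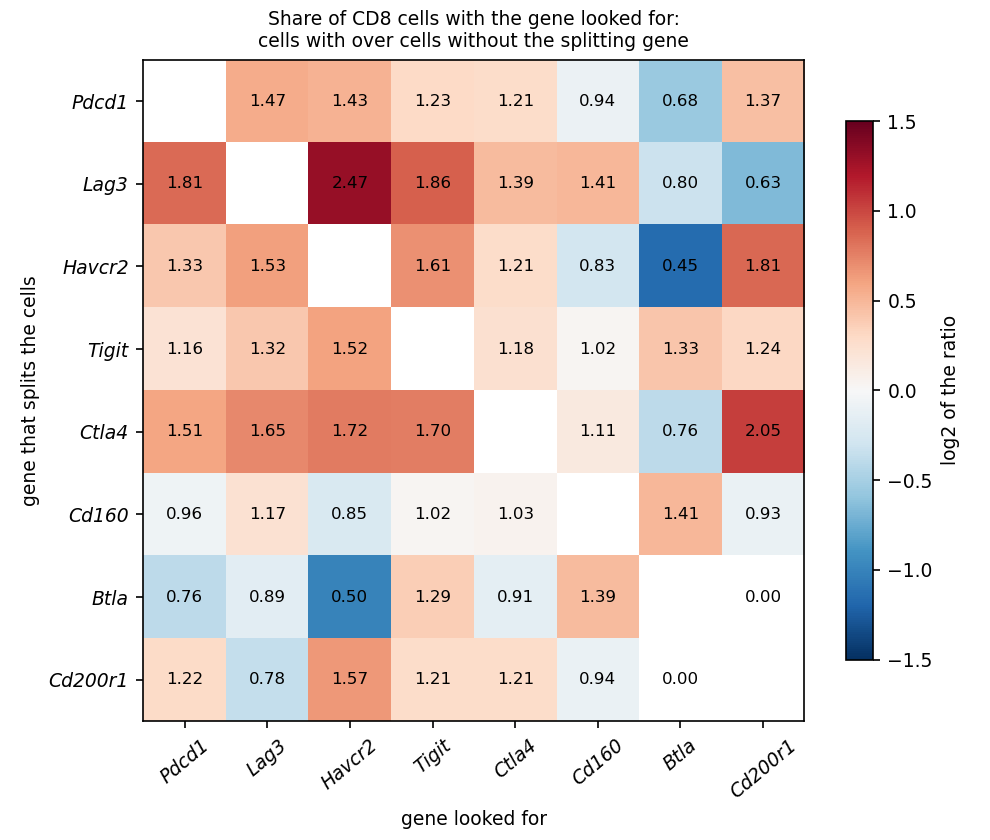
For each pair of genes in CD8 cells, the share of cells with the column gene among cells with the row gene, divided by that among cells without it (number, and colour as log2; the diagonal and ratios of 0 are left white). The row of Lag3 holds the highest ratio for Havcr2 (2.47), while the ratio is 0.50 for Havcr2 split by Btla and 0.45 for Btla split by Havcr2.

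Within single states the median ratio lay on either side of that in all CD8 cells, over the pairs with enough cells in each state, which are not the same pairs. It was 1.05 over 15 pairs in Entpd1-positive CD8 cells, where Havcr2 was found in 37.1% of cells with Lag3, against 30.7% of cells without it. It was 1.15 over 15 pairs in cycling CD8 cells, 1.14 over 21 pairs in the remaining CD8 cells, and 1.02 over 10 pairs in Foxp3-positive CD4 cells. In Foxp3-negative CD4 cells it was 1.30 over 15 pairs, with 1.15 over 6 pairs in those with Tnfsf11, Penk or Ccl1 and 1.47 over 6 pairs in the others. Ly49-positive CD8 cells had 1 such pair, at 3.54. In Tcf7-positive CD8 cells the median was 1.94 over 10 pairs. In these Tcf7-positive cells Pdcd1 was found in 34.9% of the 66 cells with Lag3, against 7.85% of those without it (ratio 4.44), and Lag3 in 30.7% of the 140 cells with Ctla4, against 10.5% (ratio 2.92). Pdcd1, Lag3 and Havcr2 were all found together in 12.5% of Entpd1-positive CD8 cells (9.27 to 16.4), in 6.48% of all CD8 cells and in 0 of 359 Tcf7-positive cells, which allows up to 0.836%. The most common combination in Entpd1-positive cells was Lag3 with Ctla4 alone, in 63 of 360 cells, followed by Pdcd1, Lag3 and Ctla4 in 52.

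Other T cell genes were followed in non-cycling CD8 cells by the number of the 8 genes found. With 0, 1, 2, 3 and 4 or more of the 8 genes, Tcf7 was found in 52.4%, 28.4%, 9.47%, 5.57% and 1.81% of cells. Over the same steps Tox, a factor of the exhausted state, was found in 8.45%, 25.7%, 41.7%, 45.7% and 49.3%. Gzmb, a granule protease, was found in 27.6% of cells with 0 and 81.4% of cells with 4 or more, Prf1 in 5.63% and 53.8%, and Ifng in 5.92% and 40.7%. Tox and these 3 genes were thus more frequent at each step, and Tcf7 less. Slamf6, a marker of the Tcf7-expressing pool, was found in 7.32%, 9.55%, 6.06%, 3.25% and 2.26% over the same steps. Its share was thus highest in cells with 1 of the 8 genes. Of the activating receptors, Icos was found in 33.0% of cells with 0 and 82.8% of cells with 4 or more, and Tnfrsf9 in 11.8% and 58.8%, while Cd28 ran from 31.8% to 45.7%.

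The 3 Nr4a genes, of which Nr4a1 and Nr4a2 are named as deleted in some of the pooled cells, did not behave alike over these steps. Nr4a2 was found in 45.6%, 73.5%, 84.7%, 89.6% and 86.4% of cells with 0, 1, 2, 3 and 4 or more of the 8 genes. Nr4a1 ran from 18.6% at 0 to 24.4% at 4 or more, with a high of 26.8% at 1, and Nr4a3 lay between 30.4% and 32.9%. Because the pool holds cells of both genotypes, these shares mix them in unknown parts. At equal depth the median number of genes was 1678 in cells with 0 of the 8 and 2031 in cells with 4 or more, and the part of that in these shares was not tested.

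**Figure D4:**
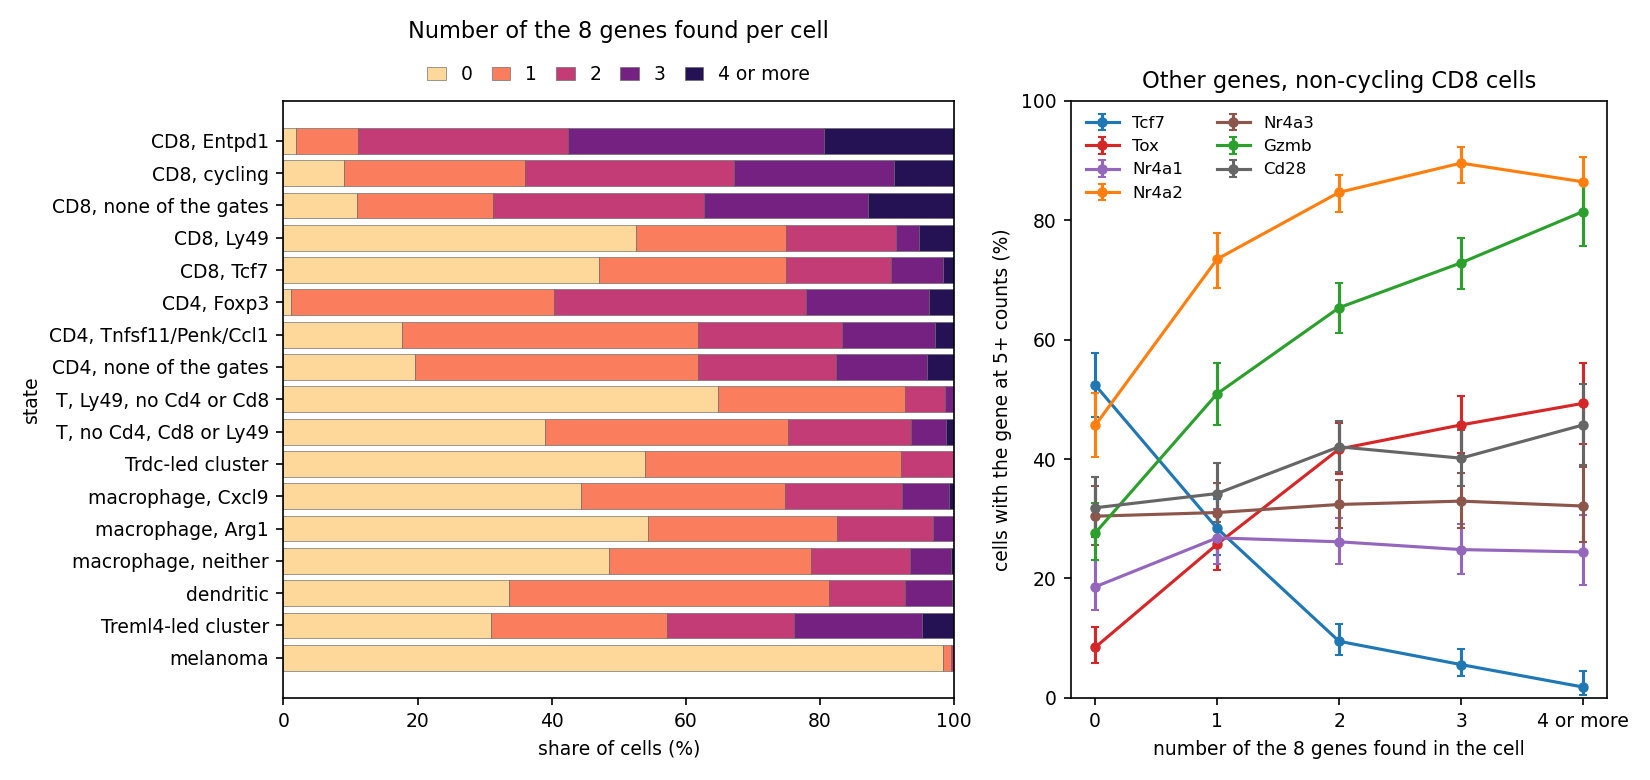
Left, the share of cells (horizontal axis) in which 0, 1, 2, 3 or 4 or more of the 8 genes were found, by state; right, the share of non-cycling CD8 cells with 7 other genes against the number of the 8 found, with exact 95% intervals. Entpd1-positive CD8 cells have the darkest bar (57.5% with 3 or more). On the right Tcf7 runs from 52.4% to 1.81% and Nr4a2 from 45.6% to 86.4%, while Nr4a3 stays near 30.4%. CD8 cells labelled none of the gates held both Entpd1 and Tcf7 or neither. Macrophages labelled neither held both Arg1 and Cxcl9 or neither.

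Macrophages also showed all 8 genes, 6 of them at levels like those that the T cell reads in their barcodes would carry. In 72.2% of the 1413 thinned macrophages 5 or more counts came from the T cell markers other than Cd2. These are the T cell counts and T cell reads named for macrophages and other non-T cells below. If those reads carried the 8 genes at the ratio seen in CD8 cells, macrophages would have 89.4 CPM of Pdcd1, 190 CPM of Lag3, 33.0 CPM of Tigit, 266 CPM of Ctla4 and 17.0 CPM of Cd160. The levels measured were 92.1 CPM of Pdcd1, 166 CPM of Lag3, 37.7 CPM of Tigit, 263 CPM of Ctla4 and 17.8 CPM of Cd160. Btla was at 8.12 CPM, against 5.06 CPM. Havcr2, at 111 CPM against 51.3 CPM, and Cd200r1, at 45.3 CPM against 3.15 CPM, were above them.

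In the 393 macrophages with under 5 T cell counts, Havcr2 was still at 102 CPM and found in 12.5% (9.37 to 16.2), and Cd200r1 at 57.5 CPM and found in 7.63% (5.21 to 10.7). Pdcd1 was at 3.90 CPM there, Lag3 at 10.01 CPM, Ctla4 at 14.8 CPM and Tigit at 1.19 CPM, which are levels like those of melanoma cells (2.45, 10.4, 20.7 and 2.14 CPM). Havcr2 was at 3.90 CPM and Cd200r1 at 0.692 CPM in melanoma cells, and each was found in 1 of 1060. Of the 8 genes, Havcr2 and Cd200r1 were thus the most often found in macrophages with so few T cell reads. Ctla4 was found in 1.02% of these macrophages, Lag3 in 0.509% and Pdcd1 in 0.254%. Tigit, Cd160 and Btla were found in 0 of the 393, which allows a share of up to 0.763%. Over all macrophages Havcr2 was found in 12.7% (11.04 to 14.6) at equal depth and in 41.9% without thinning, and by hashtag its level lay between 87.6 and 137 CPM, with a median of 111 CPM.

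**Figure D5:**
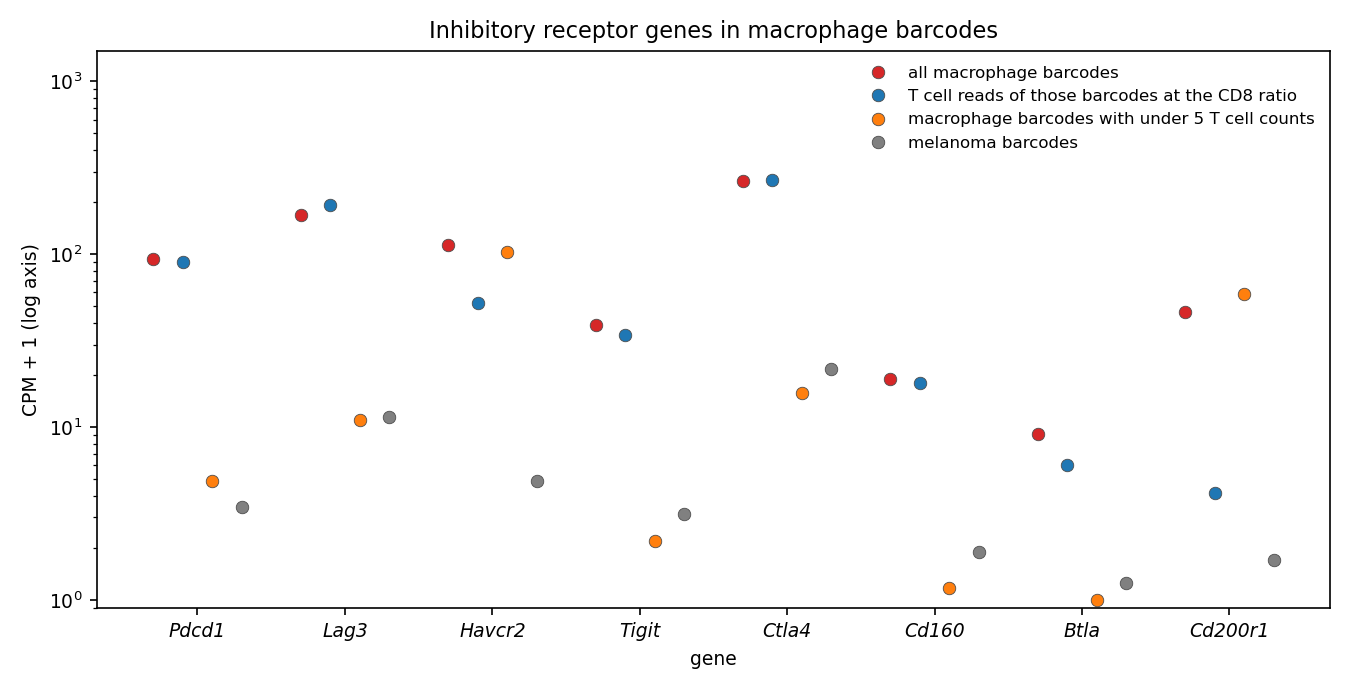
CPM + 1 on a log axis for the 8 genes in all 1413 macrophages, as carried by T cell reads at the CD8 ratio, in the 393 macrophages with under 5 T cell counts, and in 1060 melanoma cells. Havcr2 and Cd200r1 keep their level without T cell reads (102 and 57.5 CPM), and the other 6 lie at 14.8 CPM or less.

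Macrophages with Cxcl9, a chemokine that interferon gamma induces, and those with Arg1 did not differ by 2-fold in any of the 6 genes compared, beside 6.61% of all genes (2.66% higher and 3.95% lower). In barcodes with under 5 T cell counts, Havcr2 was at 121 CPM in 144 Cxcl9-positive and 42.4 CPM in 55 Arg1-positive macrophages, a log2 ratio of 1.41. It was found in 16.0% (10.4 to 23.0) of the Cxcl9-positive and 5.45% (1.14 to 15.1) of the Arg1-positive ones, intervals that overlap.

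Dendritic cells had 724 CPM of Ctla4, against 243 CPM carried by T cell reads at the CD8 ratio, but 12.9 CPM in the 57 dendritic barcodes with under 5 T cell counts. Cd8a was at 129 CPM in dendritic cells, against 377 CPM at the CD8 ratio. Btla kept its level, at 45.5 CPM in all 262 dendritic cells and 56.1 CPM in those 57, and so did Cd200r1, at 36.6 and 43.3 CPM. Btla was found in 3 of the 57, and the level rests on those few cells. In the cluster led by Ace, Ear2 and Treml4, 36 of 42 cells held 5 or more T cell counts. Pdcd1 was at 324 CPM in the 42 cells, against 167 CPM carried by T cell reads at the CD8 ratio, and was found in 33.3% (19.6 to 49.5). In the 36 cells with T cell counts Pdcd1 was higher, at 378 CPM, against 194 CPM at the CD8 ratio. The level in the cells with fewer T cell counts was not read, and the part of T cell reads in it was not tested.

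Ligands and signalling partners of the receptors were compared in the same states, with the background share of all genes past 2-fold beside the counts. Between Entpd1-positive and Tcf7-positive CD8 cells, where 6.52% of all genes were higher and 5.09% lower, 1 of 7 ligand genes compared was past 2-fold: Lgals3, which encodes galectin-3, a ligand of LAG-3, was at 426 CPM in Entpd1-positive and 133 CPM in Tcf7-positive cells (log2 ratio 1.65). None of 8 signalling genes passed, and Ptpn11, which encodes SHP-2, was at 89.1 and 90.1 CPM. Of 8 activating receptors 4 were higher and 1 was lower, with Tnfrsf9 (4-1BB) at 602 CPM in Entpd1-positive and 133 CPM in Tcf7-positive cells and Crtam at 17.6 and 67.8 CPM. Of 5 other inhibitory receptors compared 2 were higher, Klrc1 (NKG2A) at 939 and 410 CPM, and Entpd1 itself, which made the gate. Between Foxp3-positive and Foxp3-negative CD4 cells, 3 of 7 ligand genes were lower and 0 higher, beside 3.60% and 3.01% of all genes, among them Cd200, the ligand of Cd200r1, at 13.2 and 78.4 CPM, and Cd86, a ligand of CTLA-4, at 5.07 and 23.4 CPM.

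In Cxcl9-positive against Arg1-positive macrophages, 3 of 9 ligand genes were lower and 0 higher, beside 3.95% and 2.66% of all genes. Lgals3 was at 1500 CPM in Cxcl9-positive and 3223 CPM in Arg1-positive macrophages, Cd80 at 13.2 and 42.1 CPM and Ceacam1 at 8.91 and 51.7 CPM. Cd274, which encodes PD-L1, was at 329 CPM in Cxcl9-positive and 188 CPM in Arg1-positive macrophages (log2 ratio 0.79), under 2-fold.

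Across the 17 states with 50 or more thinned cells, the gene most like Pdcd1 among 3700 genes was Tox, with Pearson's r of 0.96 on log2(CPM + 5). For Ctla4 it was Tnfrsf9 (r = 0.95), for Cd160 Ugcg (0.95), for Tigit Chst2 (0.94), for Cd200r1 Klf6 (0.91), for Havcr2 Ccl3 (0.90) and for Btla Top1 (0.90). Among the 8 genes the closest were Lag3 with Havcr2 (0.84), Tigit with Ctla4 (0.84) and Lag3 with Ctla4 (0.84), and the farthest apart were Cd160 and Cd200r1 (-0.26). The states come from 1 library and share T cell reads, so these values describe the states and are not tests.

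Over the 6 hashtags the genes differed in how far their levels in non-cycling CD8 cells spread. Pdcd1 lay between 273 CPM in A0301 and 386 CPM in A0302, with a median of 341 CPM, and Ctla4 between 741 CPM in A0301 and 1179 CPM in A0303, with a median of 954 CPM. Lag3 lay between 536 CPM in A0302 and 953 CPM in A0304, with a median of 648 CPM. Havcr2 was at 143.49, 187.76, 302.01, 164.15, 153.99 and 169.93 CPM in A0301 to A0306. A0303 was the highest of the 6 for Havcr2 and Ctla4 in these cells, and no hashtag was lowest for all 4 genes. Cd160 lay between 51.9 and 68.8 CPM and Tigit between 99.1 and 174 CPM. Btla ran from 6.29 CPM in A0304 to 49.0 CPM in A0302, and Cd200r1 from 0 CPM in A0304 to 24.4 CPM in A0305. The share of CD8 cells with 3 or more of the 8 genes ran from 29.9% to 46.0% over the hashtags, with a median of 31.0%.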

How the data were processed

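Processed tables of 1 mRNA library and 1 hashtag library were used. Per the submitters' processing notes, R 3.5.3, cutadapt 2.10 and the Bowtie2 versions 2.3.4.1 and 2.4.2 were used, with the GRCm38 build. The authors deposited whole-number counts per gene and barcode; no source used here says whether molecular identifiers were collapsed, and the median non-zero count was 7, so intervals and limits from 0 cover counting error only. Depth was 4142 to 892142 counts per barcode kept, with a median of 26436.

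The 8 genes and all gene lists were chosen with earlier results of these data known. Cells were clustered without the 8 genes (Python 3.11.15, scanpy 1.11.5, leidenalg 0.10.2; 3000 variable genes, 40 principal components, 20 neighbours, resolution 1), and clusters were named from marker lists. Doublets were kept: Scrublet marked 1 cell, so it had not worked here. T cell states were gated at 5 or more raw counts. Each cell was thinned to 15000 counts, CPM came from summed thinned counts, and log2 ratios used a pseudocount of 5 CPM, with genes at 20 CPM or more in 1 of the states compared and called at 2-fold. Hashtags were called from the deposited hashtag counts by a likelihood model. No test across groups was possible, so spread is given over hashtags. Other genes were named from fixed lists, the genes most alike by Pearson's r, or the gates and leading genes of clusters. Alternatives covered depth, detection count, filters, doublets, reads of other classes, class rules, pseudocount, gates and each hashtag left out.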

Additional observations from a re-analysis of the deposited data

Results flagged for a closer look

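Hashtag A0303 stood apart from the other hashtags in 4 of the 50 sets of hashtag levels examined. The gap to its nearest neighbour was large for the range of the set, and chance flags about 1 set in 20. Sets from the same cells are not independent, so the count of 4 cannot be weighed against that rate. In cycling CD8 cells A0303 had 818.6 CPM of Lag3 and 1166 CPM of Ctla4, the highest of the 6 hashtags. In non-cycling CD8 cells it had 302.01 CPM of Havcr2, again the highest. In macrophages with both Cxcl9 and Arg1 or neither it had 241.9 CPM of Lag3. Over all macrophages Lag3 lay at 166 CPM, against 190 CPM that T cell reads at the CD8 ratio would carry.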

How the results depend on the processing

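Shares of cells moved with depth and with the detection count, and directions did not reverse in any of the 843 alternatives run for single genes, of which 771 kept their side of 2-fold. The share of Entpd1-positive CD8 cells with 3 or more of the 8 genes was 57.5%. It was 25.9% at 8000 counts, 78.7% at 25000 and 74.9% without thinning. It was 92.5% when 1 count scored a gene and 21.1% at 10 counts, 44.7% with classes by marker counts and 51.5% with the Gzmc to Gzmf gate. The share of macrophages with Havcr2 was 12.7%. It was 4.34% at 8000 counts, 22.2% at 25000, 41.9% without thinning, 44.5% at 1 count, 2.48% at 10 counts and 5.00% with classes by marker counts. That rule sets the clusters aside and sorts barcodes by T cell and macrophage marker counts alone. Macrophages carried 1926 CPM of T cell markers and melanoma cells 1438 CPM of macrophage markers. The rule can therefore mix these classes, and 44.7% and 5.00% may describe mixed cells. Leaving out each hashtag gave 56.9% to 57.8% for the first share and 12.5% to 13.1% for the second. It gave 5 genes past 2-fold between Entpd1-positive and Tcf7-positive CD8 cells and 2 between Foxp3-positive and Foxp3-negative CD4 cells in every case, and a median pair ratio of 1.18 to 1.24. Under the other settings these counts ran from 4 to 6 and from 2 to 3, and the median pair ratio from 1.11 to 1.77.

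Among ratios not yet named, in barcodes without reads of another class Ctla4 (-1.26) and Btla (1.89) passed 2-fold between Ly49-positive and Tcf7-positive CD8 cells. Lag3 was at 2.00 between Cxcl9-positive and Arg1-positive macrophages in such barcodes. With under 5 T cell counts, Lag3 was at 19.9 CPM in 144 Cxcl9-positive and 1.21 CPM in 55 Arg1-positive macrophages. Both levels are under the 20 CPM set for comparison, and Lag3 was found in 1.39% (0.169 to 4.93) of the Cxcl9-positive ones. Havcr2 passed between cycling and Entpd1-positive CD8 cells without A0304, at -1.03. The cause of these changes was not tested. The cells come from 1 library in which the genotypes cannot be told apart, and low genes such as Btla and Cd200r1 rest on few cells. No paired analysis was possible between genotypes because the labels give no replicate numbers and no genotype for the hashtags; ratios between states within a hashtag compare cells of the same sample.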
